A study of Homo sapiens with 10 samples.

Results

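The 219 RNAs described here are the long noncoding RNAs (lncRNAs) whose symbol ends in AS1 and whose raw counts summed to 100 or more over 10 libraries of RPE-1 cells. They were chosen by their symbol and this total count, with earlier results of these data known, and were 219 of the 703 rows with such a name and of the 28380 rows of the whole count table, in which 13461 rows reached the same total. RPE-1 is a telomerase-immortalized line made from human retinal pigment epithelium. Both groups were grown in the same complete medium, and for 4 h one received 25 µM sulforaphane (SFN), an isothiocyanate from cruciferous vegetables, while the other received only the vehicle DMSO. Each group had 5 libraries, and each library was made from the 3′ ends of polyadenylated RNA. The totals were summed over both groups and each of the 219 entered the test below, but near the limit a member could reach 100 only through the group where it was higher. This held for 35 members, in which double the sum of the lower group came to under 100. Of these, 4 were called higher (DDIT4-AS1, UCKL1-AS1, KIF9-AS1 and BTG3-AS1) and 6 lower (ASH1L-AS1, MELTF-AS1, PRR7-AS1, MMP25-AS1, NFYC-AS1 and STX18-AS1). The rule bears on their difference, so their values are a description. Over all genes tested, 659 reached the limit in this way and 43.1% of them were called.

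The name AS1 marks a transcript first annotated as antisense to the gene whose symbol it carries. An antisense lncRNA is transcribed from the opposite DNA strand. It can start beside the start of its gene and run away from it (a divergent or head-to-head pair), run into its gene from the far end (tail to tail), lie inside it or span it. Many such RNAs are short-lived products of promoters that fire in both directions and are cleared in the nucleus by the RNA exosome, while others are spliced, stable and abundant, among them OIP5-AS1, known in zebrafish as cyrano. Some act on the gene they overlap, others act elsewhere, and for most no function is known.

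The members were mostly thinly covered. Their totals over the 10 libraries had a median of 325 counts and ran from 100 for TDRKH-AS1 to 24079 for FGD5-AS1, and 176 members had fewer than 1000 counts. Just inside the limit were TDRKH-AS1 with 100 counts and DDIT4-AS1 and DEPDC1-AS1 with 101 each, and just outside it were TMCO1-AS1 with 98, SRD5A3-AS1 with 97 and SLC25A21-AS1 with 96. In the GENCODE 44 annotation of GRCh38, the build named in the submitters' processing notes, 217 members had an entry, 211 of them of a lncRNA type. It gave 21 members another name, of which 14 were names of divergent transcripts (ending in DT), and LRRC75A-AS1 is now SNHG29, a host gene of small nucleolar RNAs. Positions of DDIT4-AS1 and FRMD6-AS1 came from RefSeq. Relative to the gene they are named for, 126 members lay head to head, 49 tail to tail, 20 inside the gene and 20 across its whole length.

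Library totals ran from 12375860 to 20666692 counts. DMSO replicate 1 stood apart from the other 9 libraries. Its mean Spearman correlation with its own group was 0.936, against 0.979 to 0.982 for the other DMSO libraries, and on the second principal component, which held 33.2% of the variance, it lay at 90.8, SFN replicate 5 at -37.2 and the other 8 libraries between -12.4 and 13.8. The results below are given with and without it where it bears on them. Of the markers of retinal pigment epithelium, RPE65, RLBP1 and TTR had at most 4 counts in any library, while MITF, OTX2 and BEST1 were counted in all 10, so the line expressed only some of the genes that define its tissue of origin. The labels do not say whether the replicates were separate cultures, and p-values then measure only the spread between these samples. The sources used here do not state whether reads were counted by strand. Where the exons of a lncRNA lie over exons of a gene on the other strand, reads of the pair therefore cannot be told apart.

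Of the 219 AS1 lncRNAs, 14 were higher in SFN and 34 were lower, at an adjusted p under 0.05 from edgeR (quasi-likelihood F test, Benjamini-Hochberg adjustment across the 13461 genes). Among all genes tested, 8.96% were higher and 13.9% lower, so 22.8% were called in either direction, and the 48 members called (21.9%) were close to that background. With library size alone as the scaling, which moved the median of all genes to -0.11, 12 members were higher and 36 lower, and over all genes 27.1% of the calls were higher in place of 39.3%. Changes of over 2-fold were called in 11 members that rose and 17 that fell, beside a background of 2.86% and 5.81%. Among members with under 300 counts, 6 of 103 rose and 9 fell in this way, beside 155 and 172 of 1859 such genes. With 300 or more but under 1000 counts, 4 of 73 rose and 6 fell, beside 94 and 250 of 1961 genes. With 1000 or more, 1 of 43 rose and 2 fell, beside 136 and 360 of 9641 genes. Most members held under 1000 counts and most genes tested held 1000 or more, so the background over all depths cannot show an excess. The SFN libraries all lay above the DMSO libraries in 12 members and all below them in 25, where the background was 8.66% above, 11.0% below and 19.7% in either direction. The median log2 fold change was -0.13 for the members and -0.028 for all genes. With under 300 counts these were -0.067 and -0.085, and with 300 or more but under 1000 they were -0.25 and -0.19. With 1000 or more counts they were -0.072 and 0.00042. Without DMSO replicate 1, 66 of the 219 members were called, 25 higher and 41 lower, all 48 of the first set among them. Over all genes 46.1% were called in that fit, 22.5% higher and 23.5% lower. The members' share was then below the background in both directions and no longer close to it. The members' median was then -0.00069. Without DMSO replicate 4, or without SFN replicate 1, 3 or 4, between 20 and 22 members were lower.

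**Figure D1:**
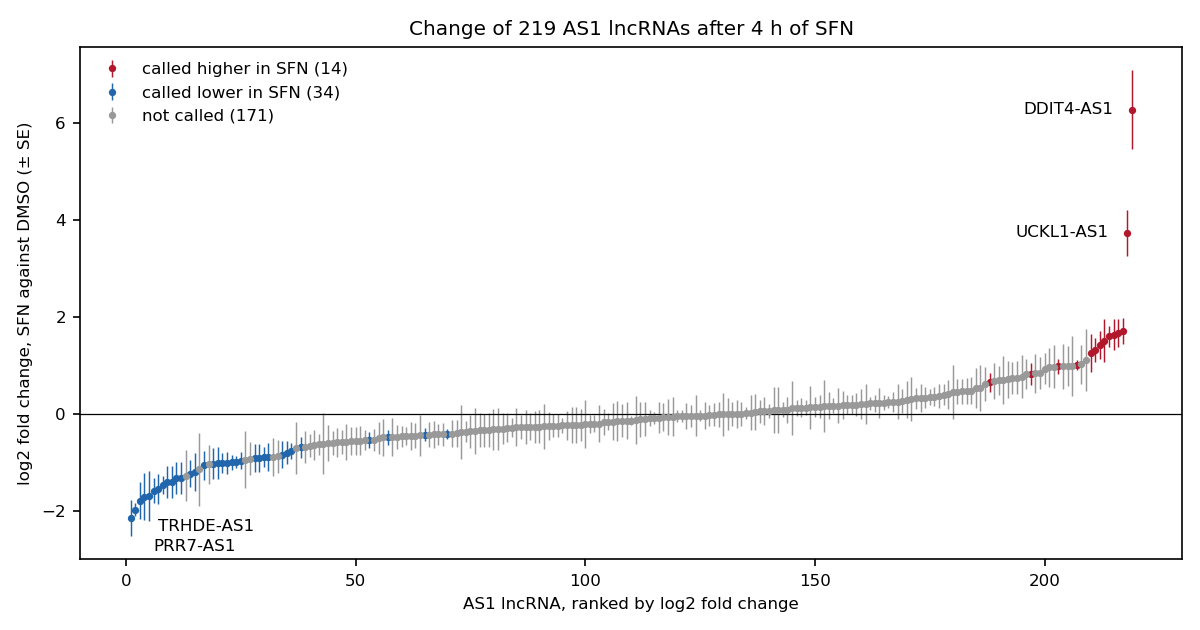
Each point is 1 of the 219 AS1 lncRNAs, ranked from left to right by its log2 fold change between 5 SFN and 5 DMSO libraries on the vertical axis, with bars of ± 1 SE. Red marks the 14 called higher, blue the 34 called lower, and most points lie near 0, with DDIT4-AS1 and UCKL1-AS1 far above the rest. The height of DDIT4-AS1 depends on the prior count of the fit, since its DMSO libraries held 0 or 1 counts.

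DDIT4-AS1 (ENSG00000269926) had the largest rise of all members, but from almost no counts, and it reached the limit of 100 only through its SFN libraries. It is the divergent partner of DDIT4, which encodes the stress-induced mTORC1 inhibitor REDD1. In RefSeq it lies on the minus strand at chr10:72271386-72273711, and its start is 208 bp from that of DDIT4 with no overlap. DMSO libraries 1 to 5 held 0, 0, 0, 0 and 1 counts, and SFN libraries 1 to 5 held 8, 34, 17, 28 and 13. The groups did not overlap. Scaled by library size, the 100 SFN counts against 1 DMSO count gave a ratio of 126, with an exact 95% interval of 22.2 to 5040 that covers counting error only. These values are given as a description with no test, since without the rise this RNA would not have been a member, and its fitted fold change depends on the prior count and is not used here. DDIT4 itself ran from 3.51 to 5.66 CPM (counts scaled to a common library size with TMM) in DMSO and from 74.1 to 120 CPM in SFN, and rose by a log2 fold change of 4.62 ± 0.19 (SE, n = 5 per group, adjusted p = 3.31e-08 by edgeR). The sequence beside the start of DDIT4-AS1 is shown because the starts of both RNAs lie in it. RefSeq gives 250 bases before and 50 after the start of DDIT4-AS1, at chr10:72273662-72273961 of GRCh38.p14 on the minus strand, written 5′ to 3′ along DDIT4-AS1 with CCAAT in capitals.
DDIT4-AS1: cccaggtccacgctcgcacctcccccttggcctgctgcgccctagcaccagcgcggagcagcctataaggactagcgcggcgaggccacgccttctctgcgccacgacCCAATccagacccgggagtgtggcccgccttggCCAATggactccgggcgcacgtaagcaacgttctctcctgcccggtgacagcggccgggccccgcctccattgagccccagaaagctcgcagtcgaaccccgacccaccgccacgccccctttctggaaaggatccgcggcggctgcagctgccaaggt
The window held 2 copies of CCAAT, the letters read by the factor NF-Y, whose first letters lie at -142 and -109 from the RefSeq start.

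UCKL1-AS1 (ENSG00000280213) showed the next-largest rise, and here the gene it is named for was not called. UCKL1 encodes an enzyme of the uridine-cytidine kinase family. Counts of UCKL1-AS1 were 2, 2, 1, 4 and 0 in the DMSO libraries and 27, 22, 17, 15 and 21 in the SFN libraries. Every SFN library thus held more than any DMSO library. The ratio of the scaled sums was 14.3 (exact 95% interval 7.25 to 32.2, counting error only) and the fitted edgeR log2 fold change was 3.74. Its 102 SFN counts against 9 DMSO counts carried it over the limit, so these values too are a description with no test. UCKL1 ran from 15.6 to 18.1 CPM in DMSO and from 15.5 to 17.5 CPM in SFN, a log2 fold change of -0.07 (adjusted p = 0.69, edgeR). The exons of UCKL1-AS1 lie over 157 bp of exons of UCKL1 and over 282 bp of exons of ZNF512B, which fell by 1.20 on the log2 scale (adjusted p = 0.000457, edgeR).

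Of the 12 largest rises, the one with the smallest error was that of MBNL1-AS1, which lies inside MBNL1, the gene of a splicing regulator. It ran at 14.4, 15.4, 13.9, 14.6 and 16.0 CPM in DMSO and at 31.5, 28.7, 27.3, 29.4 and 33.6 CPM in SFN. The lowest SFN library was well above the highest DMSO library. Its log2 fold change was 1.02 ± 0.10 (SE, adjusted p = 2.94e-05, edgeR), while MBNL1 was at 362 ± 109 CPM in DMSO and 442 ± 112 CPM in SFN (SD, n = 5 each), with an adjusted p of 0.47. TTC28-AS1, at the far end of TTC28, had a mean of 3.57 ± 0.33 CPM in DMSO and 7.10 ± 1.21 CPM in SFN (SD, n = 5 each), again with no overlap, and TTC28 differed by -0.12 on the log2 scale (adjusted p = 0.70, edgeR).

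The other members among the 12 largest rises had few counts. MZF1-AS1 spans MZF1, a zinc finger transcription factor gene, and rose from between 0.473 and 1.27 CPM to between 2.38 and 4.11 CPM, a log2 fold change of 1.71 ± 0.27. KIF9-AS1, opposite the kinesin gene KIF9, and BTG3-AS1, divergent from the antiproliferative gene BTG3, rose by 1.68 ± 0.29 and 1.64 ± 0.32 (SE). SH3BP5-AS1 rose by 1.33 ± 0.25, from 1.63 ± 0.41 to 4.09 ± 1.06 CPM (SD). The genes these 4 are named for all had adjusted p-values of 0.18 or more in the same edgeR fit. KIF9-AS1 and BTG3-AS1 reached the limit on total counts only through their SFN libraries, so their values are a description. The calls of SNRK-AS1 and INTS6-AS1 were lost under some of the alternatives. SNRK-AS1 lies within the gene of an AMPK-related kinase and ran from 0.124 to 1.02 CPM in DMSO and from 1.28 to 1.71 CPM in SFN (log2 fold change 1.27, edgeR adjusted p = 0.039), and it lost its call in 10 of 18 alternatives, with adjusted p-values up to 0.087. These included leaving out DMSO replicate 3 or 5 or any 1 of the 5 SFN replicates. INTS6-AS1 is divergent from INTS6, a subunit gene of the Integrator complex that cuts nascent RNA. It reached 1.80 CPM in DMSO replicate 1 and was at 1.79 CPM in SFN replicate 1, so its groups just overlapped, and its call (1.52, adjusted p = 0.027) was lost without DMSO replicate 2 or 5 or SFN replicate 2 or 5, with adjusted p-values up to 0.065.

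**Figure D2:**
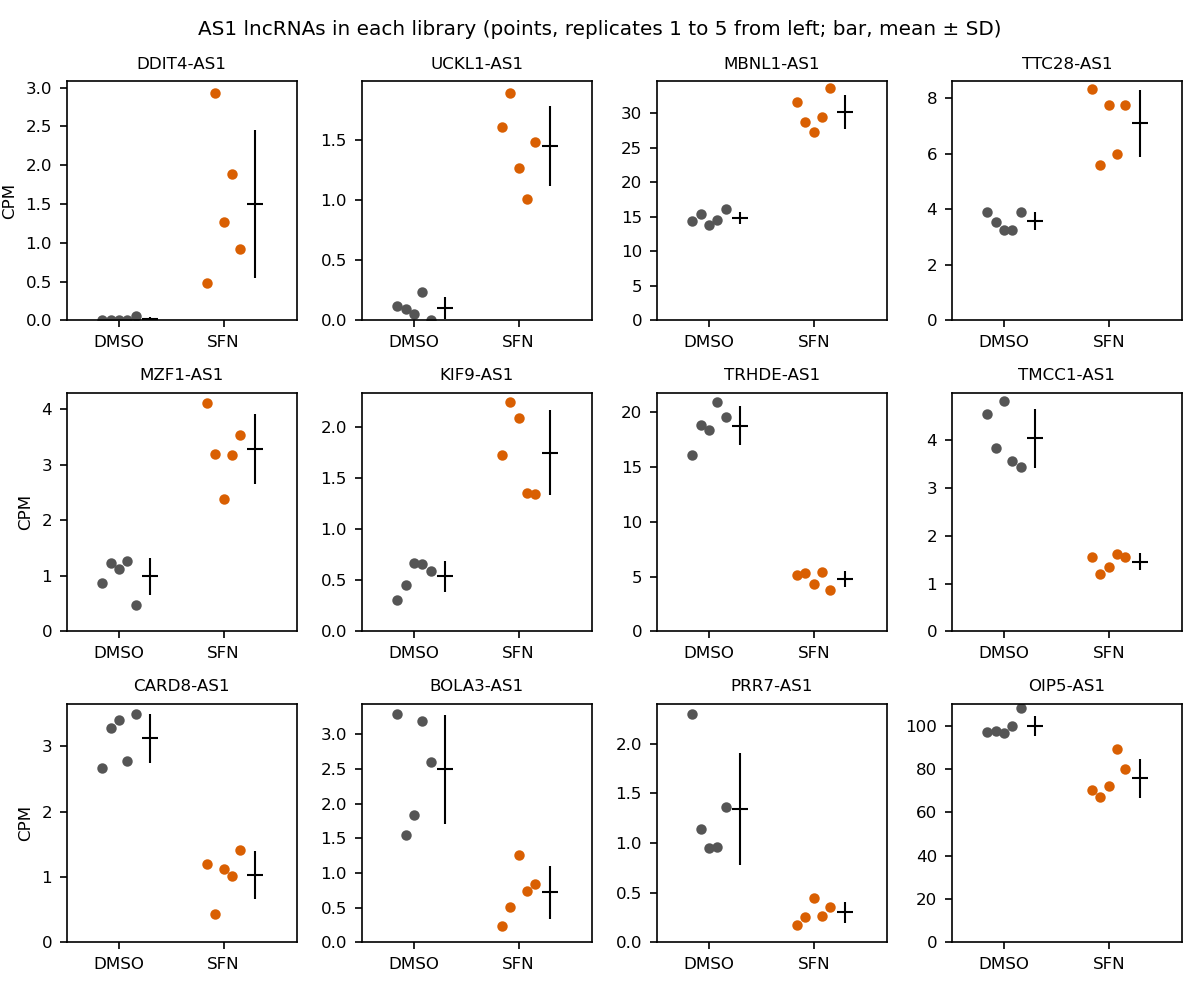
CPM on the vertical axis of 12 AS1 lncRNAs in each of the 5 DMSO (grey) and 5 SFN (orange) libraries, with the mean ± SD at the right of each group. In all 12 panels the SFN points lie wholly above or wholly below the DMSO points, and DDIT4-AS1 is at 0 in 4 of 5 DMSO libraries.

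TRHDE-AS1 (ENSG00000236333) was the clearest of the members that fell. It lies inside TRHDE, which encodes the peptidase that degrades thyrotropin-releasing hormone. Its levels were 16.1, 18.8, 18.3, 20.9 and 19.5 CPM in DMSO and 5.13, 5.35, 4.32, 5.40 and 3.74 CPM in SFN. All SFN libraries were far below all DMSO libraries. The log2 fold change was -1.97 ± 0.14 (SE, adjusted p = 2.33e-06, edgeR), and TRHDE, over whose exons it has 1085 bp, stood at 52.5 ± 8.76 CPM in DMSO and 49.7 ± 11.9 CPM in SFN (SD, adjusted p = 0.81). The ratio of lncRNA to gene, tested with limma on the difference of log2 CPM, fell by 1.85 ± 0.25 on the log2 scale (adjusted p = 0.000553 over 3034 pairs).

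A pair of divergent lncRNAs fell while the genes that start within 100 bp of them were not called. TMCC1-AS1 (TMCC1-DT in GENCODE 44) starts 100 bp from TMCC1, the gene of an endoplasmic reticulum membrane protein. It ran at 4.54, 3.83, 4.81, 3.55 and 3.43 CPM in DMSO and at 1.55, 1.21, 1.34, 1.62 and 1.55 CPM in SFN. No SFN library came near the lowest DMSO library. Its log2 fold change was -1.46 ± 0.18 (SE, adjusted p = 0.000144, edgeR), against -0.12 for TMCC1 (adjusted p = 0.71). BOLA3-AS1 (BOLA3-DT) starts 95 bp from BOLA3, which is needed for iron-sulfur cluster assembly in mitochondria. It fell from between 1.55 and 3.29 CPM to between 0.239 and 1.27 CPM, a log2 fold change of -1.78 ± 0.38 (adjusted p = 0.00565), beside 0.01 for BOLA3 (adjusted p = 0.98). Neither lncRNA has exons over an opposite-strand gene that was tested. Their promoter windows are shown beside those of TRHDE-AS1, which also fell, and RBM26-AS1, which rose, because the ratios of these 4 to their genes were called. Each is 300 bases of RefSeq sequence on GRCh38.p14, 5′ to 3′ along the lncRNA, 250 before and 50 after its start. Capitals mark CCAAT or the GC box GGGCGG on either strand.
TMCC1-AS1: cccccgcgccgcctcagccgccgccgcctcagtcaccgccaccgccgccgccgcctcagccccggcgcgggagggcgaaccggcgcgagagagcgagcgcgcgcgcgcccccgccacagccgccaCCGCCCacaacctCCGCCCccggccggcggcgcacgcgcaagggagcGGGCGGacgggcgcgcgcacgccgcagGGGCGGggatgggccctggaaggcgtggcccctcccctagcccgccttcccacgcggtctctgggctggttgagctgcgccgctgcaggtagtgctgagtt
BOLA3-AS1: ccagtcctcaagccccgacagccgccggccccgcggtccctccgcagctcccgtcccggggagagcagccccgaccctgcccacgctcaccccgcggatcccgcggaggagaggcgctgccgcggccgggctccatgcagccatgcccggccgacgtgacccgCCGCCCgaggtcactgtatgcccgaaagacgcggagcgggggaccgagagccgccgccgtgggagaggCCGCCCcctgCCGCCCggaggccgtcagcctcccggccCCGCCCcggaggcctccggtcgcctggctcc
TRHDE-AS1: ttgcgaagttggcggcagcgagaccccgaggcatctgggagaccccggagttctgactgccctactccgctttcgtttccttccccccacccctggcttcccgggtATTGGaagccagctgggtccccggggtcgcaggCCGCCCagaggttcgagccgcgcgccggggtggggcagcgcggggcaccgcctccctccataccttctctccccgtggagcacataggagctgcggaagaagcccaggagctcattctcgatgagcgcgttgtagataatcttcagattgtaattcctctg
RBM26-AS1: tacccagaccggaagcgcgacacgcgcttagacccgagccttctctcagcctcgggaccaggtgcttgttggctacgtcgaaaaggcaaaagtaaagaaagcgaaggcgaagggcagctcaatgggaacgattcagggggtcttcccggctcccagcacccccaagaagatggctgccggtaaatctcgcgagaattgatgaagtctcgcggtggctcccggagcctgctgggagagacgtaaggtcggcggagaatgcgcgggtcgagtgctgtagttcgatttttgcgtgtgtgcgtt
These windows lie at chr3:129893621-129893920 on the plus strand, chr2:74147731-74148030 on the plus strand, chr12:72273460-72273759 on the minus strand and chr13:79406059-79406358 on the plus strand, in the order given. TMCC1-AS1 and BOLA3-AS1 held 4 GC boxes each, TRHDE-AS1 held 1 GC box and 1 CCAAT, and RBM26-AS1 held none of the letters searched.

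Over all members, 178 had a RefSeq promoter window. A GC box (GGGCGG) was in 111 of them (62.4%), against 44.9% of all 34796 promoter windows of the same length, and the median GC content was 64.3% against 58.7%. The members were chosen by their counts in these cells and the 34796 windows were not, so the sets differ in more than their names. CCAAT was in 64 of the members' windows (36.0%, all promoters 34.6%). The core letters of the antioxidant response element bound by NRF2, TGACNNNGC, were in 27 (15.2%, all promoters 13.3%), and those of the heat shock element, GAANNTTC, were in 12 (6.74%, all promoters 6.79%). TATAAA was in 11 windows (6.18%, all promoters 11.6%) and TGATGNAA, the composite element of C/EBP and ATF factors, in 2 (1.12%, all promoters 3.63%). All 6 sets of letters were searched on both strands. Among the 10 members with a window that rose, the antioxidant response letters were in 0 and the heat shock letters in 0, and among the 29 that fell they were in 4 and 1. A GC box was in 5 of the 10 and 22 of the 29, and CCAAT was in 1 and 12. TATAAA was in 0 and 1, and TGATGNAA in 0 and 0. The difference between members that rose and fell was not tested. A match is a stretch of letters and does not mark a bound site, and a missing match says only that the letters are not in these 300 bases.

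The remaining large falls were of RNAs with few counts. PRR7-AS1 had the lowest fold change of all members, from 2.30, 1.14, 0.951, 0.964 and 1.36 CPM in DMSO to 0.179, 0.259, 0.447, 0.270 and 0.353 CPM in SFN. The groups did not overlap, although DMSO replicate 1 was the highest library, and the log2 fold change was -2.13 ± 0.37 with it and -1.87 without it (edgeR). CARD8-AS1 starts beside CARD8, the gene of an inflammasome sensor, and fell from 3.13 ± 0.38 to 1.03 ± 0.37 CPM (SD), a log2 fold change of -1.57 ± 0.26. ADIRF-AS1 fell from 5.16 ± 0.98 to 1.75 ± 0.89 CPM (SD), and ADIRF had no row in the count table. RPARP-AS1, whose gene RPARP also had no row, fell by 1.22 on the log2 scale with no overlap of its groups, and it was picked for mention after its value was seen, as the largest fall below the first 12. ASH1L-AS1, divergent from the histone methyltransferase gene ASH1L, was at 0.888 to 1.68 CPM in DMSO and 0.0745 to 0.989 CPM in SFN. Its groups overlapped, and its call (-1.68, adjusted p = 0.035) was lost in 8 of 18 alternatives, with adjusted p-values up to 0.086, among them leaving out DMSO replicate 2, 3 or 4 or SFN replicate 1, 2, 3 or 4. PRR7-AS1 and ASH1L-AS1 reached the limit on total counts only through their DMSO libraries, so their values are a description.

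For NIFK-AS1, H1FX-AS1 and FRMD6-AS1 the size of the fall rested partly on DMSO replicate 1. NIFK-AS1, at the far end of the nucleolar protein gene NIFK, was at 18.7 CPM in that library and between 5.66 and 7.38 CPM in the other 4 DMSO libraries, against 2.90 to 4.48 CPM in SFN. Its mean was 8.96 ± 5.48 CPM in DMSO and 3.40 ± 0.65 CPM in SFN (SD), and its log2 fold change was -1.40 with that library and -0.95 without it, with adjusted p-values of 0.00973 with it and 0.000332 without it (edgeR). FRMD6-AS1, inside the Hippo pathway gene FRMD6, fell by 1.31 with it and by 0.95 without it. H1FX-AS1, beside a linker histone gene, was at 4.23 CPM in that library, 1.63 to 2.23 CPM in the other DMSO libraries and 0.675 to 1.27 CPM in SFN. All 3 calls held without DMSO replicate 1.

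Of the 219 genes that the members are named for, 192 were tested, 23 had a total under 100 and 4 (ADIRF, CD27, FGD5 and RPARP) had no row. Among the 192, 21 were higher and 34 lower (28.6% called, all genes 22.8%). Without DMSO replicate 1 these were 47 and 56, where 22.5% of all genes were higher and 23.5% lower. In the main fit, 6 of the called genes reached the limit of 100 only through 1 group, so their calls are a description. They were MELTF, MMP25, ATP2A1 and SDCBP2, which were higher, and ZNF433 and LIPE, which were lower. No gene of the 192 that reached the limit in this way went uncalled, where 43.1% of all such genes were called. In most pairs at least 1 of the RNAs was not called. In 109 pairs neither RNA was called, in 28 only the lncRNA was called and in 44 only the gene. In the 11 pairs with both called, 2 rose together, 5 fell together, 3 had a lower lncRNA and a higher gene and 1 a higher lncRNA and a lower gene. The log2 fold changes had the same sign in 97 of 192 pairs. Spearman's rho across the 192 pairs was 0.11 and Pearson's r was 0.24, a description of pairs that share the same libraries and depth. For the 79 pairs with starts within 1000 bp, rho was 0.12.

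**Figure D3:**
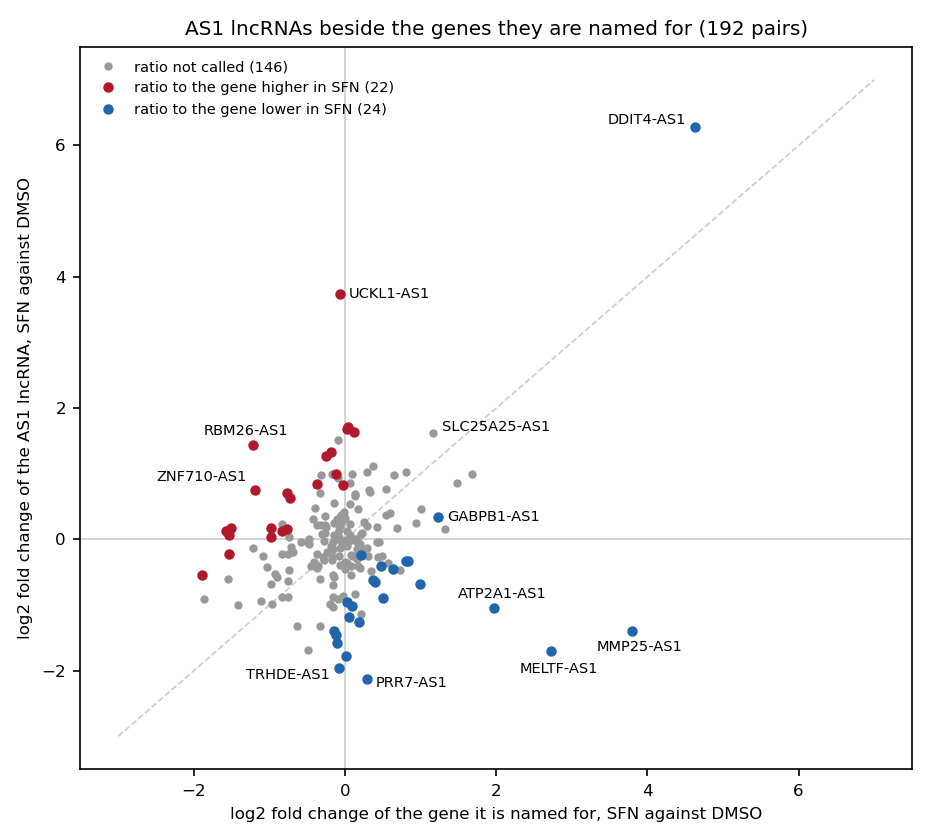
Log2 fold change (SFN against DMSO) of each AS1 lncRNA on the vertical axis against that of the gene it is named for on the horizontal axis, for 192 pairs, with the line of equal change dashed. Red and blue mark the 22 and 24 pairs whose ratio of lncRNA to gene was called higher or lower in SFN, and MMP25-AS1, MELTF-AS1 and ATP2A1-AS1 stand at the lower right, below 0 while their genes rose. DDIT4-AS1 lies above the dashed line although its ratio is marked lower, because both values depend on the prior counts of the fits.

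The ratio of lncRNA to gene was called higher in 22 and lower in 24 of the 192 pairs by limma, with adjustment over all 3034 opposite-strand and name pairs of the table. Over those 3034 pairs, 8.34% were higher and 11.7% lower, where a pair with no lncRNA name was taken as the RNA with fewer counts over the one with more. Without DMSO replicate 1, 38 ratios were higher and 32 lower, beside 16.2% and 20.9% of all pairs. DDIT4-AS1 was among the 24, but with 0 or 1 counts in each DMSO library its ratio rests on the prior count of 2 and is not read here.

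MMP25, MELTF and ATP2A1 rose while their antisense RNAs fell, and these had the 3 largest fitted falls in ratio among the 192 pairs. All 3 genes reached the limit of 100 only through their SFN libraries, with 18 counts of MMP25, 41 of MELTF and 39 of ATP2A1 in the 5 DMSO libraries together, so the sizes of these ratios depend on the prior count of 2 and are a description. MMP25-AS1 and MELTF-AS1 reached the limit only through their DMSO libraries, so their falls too are a description. MMP25 encodes a membrane-anchored matrix metalloproteinase. MMP25-AS1 was at 2.11, 1.69, 2.07, 2.17 and 1.24 CPM in DMSO and at 0.477, 0.948, 0.596, 1.15 and 0.353 CPM in SFN. MMP25 was at 0, 0.228, 0.0559, 0.422 and 0.296 CPM in DMSO and at 1.37, 5.00, 2.61, 2.70 and 2.90 CPM in SFN. Neither RNA's groups overlapped. MMP25-AS1 fell by 1.40 ± 0.33 on the log2 scale, MMP25 rose by 3.80 ± 0.55 (SE, edgeR), and the fitted log2 ratio differed by -4.64 ± 0.49 (limma), with 0, 5, 1, 7 and 5 counts of MMP25 in the DMSO libraries. Their exons share 1454 bp.

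MELTF encodes the iron-binding membrane protein melanotransferrin, and MELTF-AS1 lies inside it. MELTF-AS1 was at between 0.783 and 2.42 CPM in DMSO and 0.358, 1.03, 0.149, 0.338 and 0.283 CPM in SFN, where SFN replicate 2 reached into the DMSO range. MELTF was at 0.273 to 0.622 CPM in DMSO and 2.62 to 3.78 CPM in SFN. The call of the lncRNA (-1.70, adjusted p = 0.024) was lost without DMSO replicate 5 or SFN replicate 1, 3, 4 or 5 (adjusted p up to 0.062), while MELTF rose by 2.72 ± 0.26 (SE, edgeR) and the fitted ratio differed by -3.98 ± 0.43 (limma). Each RNA of this pair reached the limit only through the group where it was higher, so these values are a description. ATP2A1 encodes the calcium pump SERCA1. ATP2A1-AS1 was at 8.14 CPM in DMSO replicate 1, 2.43 to 4.10 CPM in the other DMSO libraries and 1.79 to 2.26 CPM in SFN, and it fell by 1.05 with that library and 0.71 without it. ATP2A1 rose by 1.97 ± 0.36 (SE) from a mean of 0.418 CPM, and the fitted ratio differed by -2.71 ± 0.42 (limma). The call of ATP2A1-AS1 itself was lost without SFN replicate 1 or 3 and with limma-voom, with adjusted p-values up to 0.086.

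RBM26 was the reverse case. RBM26 encodes an RNA-binding protein of the nuclear RNA decay machinery, and RBM26-AS1 is divergent from it, the starts lying 184 bp inside each other, with 185 bp of shared exon. Levels of RBM26-AS1 were 0.684, 1.41, 1.68, 0.904 and 1.48 CPM in DMSO and 3.82, 1.90, 4.17, 3.24 and 3.60 CPM in SFN. RBM26 was at 116, 113, 124, 129 and 121 CPM in DMSO and at 49.1 to 57.2 CPM in SFN. Both RNAs had groups that lay apart. The lncRNA rose by 1.43 ± 0.29 and the gene fell by 1.22 ± 0.09 on the log2 scale (SE, edgeR), and the ratio rose by 2.59 ± 0.27 (adjusted p = 0.000145, limma).

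**Figure D4:**
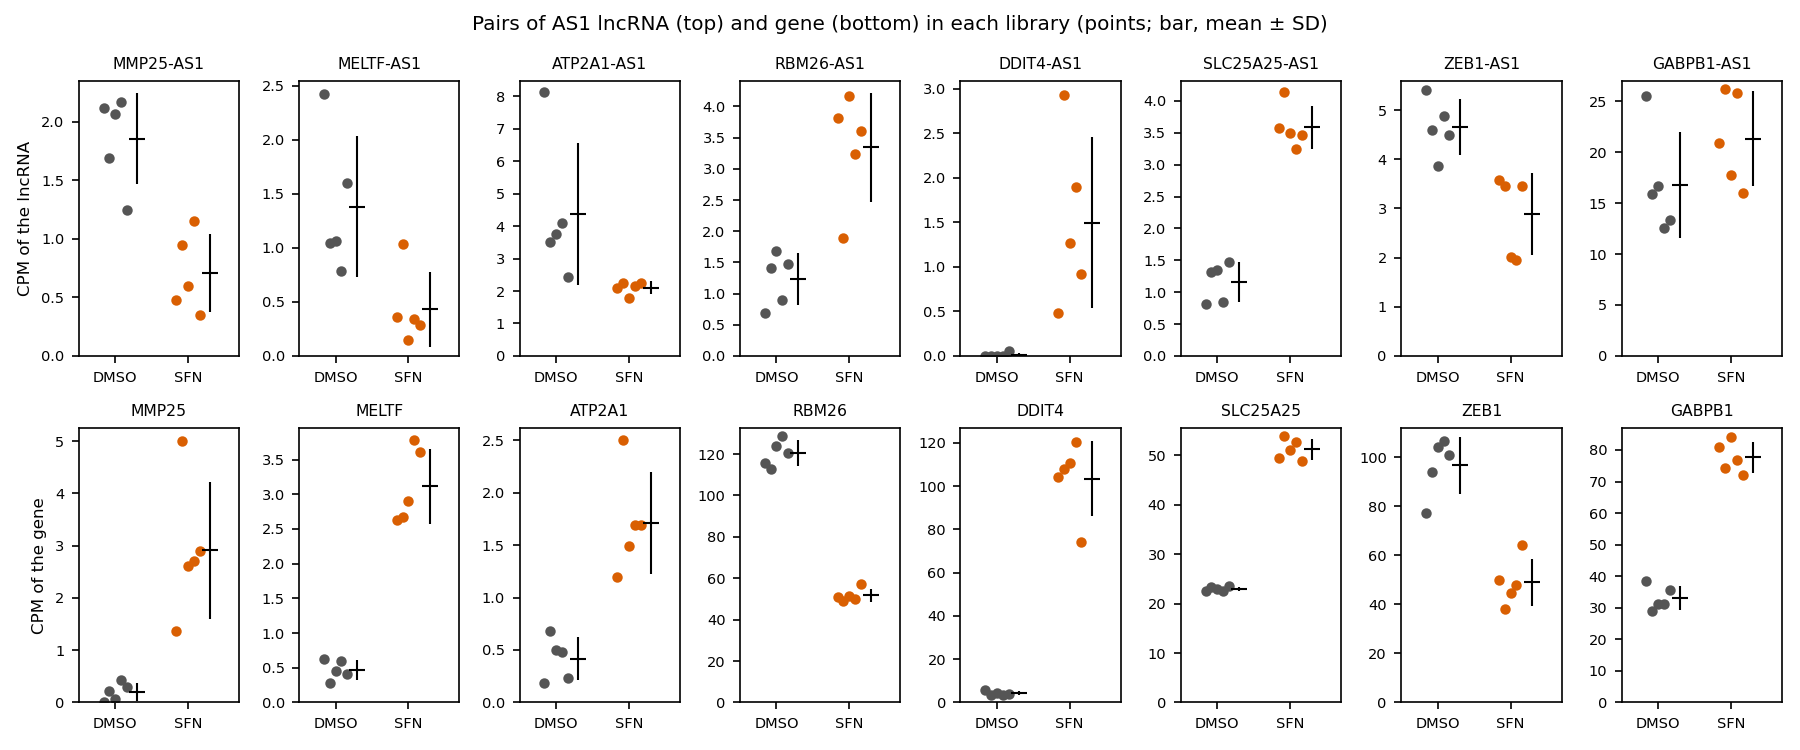
CPM on the vertical axes of 8 AS1 lncRNAs (top row) and of the genes they are named for (bottom row) in each of 5 DMSO (grey) and 5 SFN (orange) libraries, with the mean ± SD. The first 3 pairs move in opposite directions with the gene rising, RBM26 with the gene falling, DDIT4 and SLC25A25 rise together, ZEB1 falls together with its lncRNA, and GABPB1 rises beside a lncRNA whose groups overlap.

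In other pairs with an altered ratio it was the gene that had the larger fitted change. ZNF710-AS1, FOXC2-AS1 and GDNF-AS1 had called ratios of 1.93 ± 0.20, 1.95 ± 0.51 and 1.65 ± 0.47 (log2, SE, limma), while the lncRNAs themselves had log2 differences of 0.75, 0.17 and 0.13 with edgeR adjusted p-values of 0.13, 0.87 and 0.90. Their genes, which encode a zinc finger protein, a forkhead transcription factor and a neurotrophic factor, fell by 1.20, 1.51 and 1.57. FOXC2-AS1 was at 3.92 CPM in DMSO replicate 1 and at 0.391 to 1.08 CPM in the other DMSO libraries, and without that library it was called higher (0.98, adjusted p = 0.037). GABPB1 encodes a subunit of the ETS-family factor GABP, which controls genes of mitochondrial function, and rose by 1.23 ± 0.11 (SE, adjusted p = 1.23e-05). GABPB1-AS1 was at 25.5, 15.9, 16.7, 12.5 and 13.3 CPM in DMSO and 20.9, 26.2, 17.7, 25.9 and 16.0 CPM in SFN, with overlapping groups and a difference of 0.35 (adjusted p = 0.28), which became 0.54 (adjusted p = 0.012) without DMSO replicate 1. Its ratio to GABPB1 fell by 0.87 ± 0.22 on the log2 scale (adjusted p = 0.019, limma).

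Beside DDIT4, the pair that rose together was SLC25A25, which encodes a mitochondrial ATP-Mg/phosphate carrier. SLC25A25-AS1 was at 0.808, 1.32, 1.34, 0.844 and 1.48 CPM in DMSO and between 3.24 and 4.14 CPM in SFN, and SLC25A25 at 22.5 to 23.6 and 49.0 to 54.0 CPM. Both sets of groups were far apart. The lncRNA rose by 1.61 ± 0.22 and the gene by 1.16 ± 0.09 (SE, edgeR), and their ratio differed by 0.41 ± 0.19 (adjusted p = 0.15, limma). The RNAs run tail to tail and share 665 bp of exon at their 3′ ends, where these libraries are read. The pairs that fell together were ZEB1, ZMIZ1, FRMD6, NR2F2 and COX10. ZEB1-AS1 is divergent from ZEB1, a transcription factor of the epithelial-mesenchymal transition. It was at 3.86 to 5.41 CPM in DMSO and at 3.58, 3.45, 2.01, 1.96 and 3.46 CPM in SFN, a log2 fold change of -0.68 ± 0.21, against -0.98 ± 0.15 for ZEB1 (SE, edgeR). The groups of ZEB1-AS1 did not overlap, but its adjusted p was 0.038 and passed the threshold in only 11 of 18 alternatives. It was lost without DMSO replicate 2, 4 or 5 or SFN replicate 3 or 4, with no filter on low counts and with limma-voom, where the adjusted p was highest (0.111).

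Members that rose and members that fell were found in each main position. Of 126 head-to-head members, 7 were higher and 21 lower, and of 49 tail-to-tail members 4 and 7. Inside the gene, 2 of 20 were higher and 4 lower, and among the 20 that span their gene 1 and 1. Of the 81 head-to-head members with starts within 1000 bp, 4 were higher and 9 lower. Another 18 were set apart because they start within 5000 bp downstream of a tested gene on their own strand, whatever their position above. Of these 18, 3 were higher and 1 lower (22.2% called), with a median log2 fold change of 0.27. These counts were read against a background of 8.96% higher and 13.9% lower, and no difference between positions was tested.

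The members were also divided by whether their exons lie over an opposite-strand gene, against the same background of 8.96% higher and 13.9% lower, and the difference between the classes was not tested. Of the 158 members with exons over a tested gene on the other strand, 13 were higher and 20 lower by edgeR (20.9% called), with a median log2 fold change of -0.033. Of the 59 without such exons, 0 were higher and 13 lower (22.0% called), with a median of -0.36. At an unadjusted p under 0.05, 3 of these 59 were higher and 17 lower. DESeq2 called 0 higher and 13 lower, limma-voom 0 and 9, and edgeR without DMSO replicate 1 called 2 higher and 16 lower, where 22.5% of all genes were higher and 23.5% lower. DDIT4-AS1, which rose, and FRMD6-AS1, which fell, were in neither set, because their positions came from RefSeq. The 0 members higher therefore does not cover DDIT4-AS1. Among the 13 that rose over an opposite-strand gene, that gene also rose in 1 case (SLC25A25-AS1), fell in 2 (RBM26-AS1 and UCKL1-AS1) and was not called in 10. Among the 20 that fell, that gene rose in 3, fell in 2 and was not called in 15. The gene taken was the tested gene with the longest exon overlap, which for UCKL1-AS1 was ZNF512B and not UCKL1. The part of reads of the opposite strand in these counts was not tested. Exons of 11 members lie over exons of a tested gene on the same strand, where reads cannot be told apart by strand. Of these 11, 1 was higher and 3 lower (36.4% called, all genes 22.8%), and the highest log2 fold change among them was 1.71, that of MZF1-AS1. The part of reads of the same-strand gene was not tested.

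**Figure D5:**
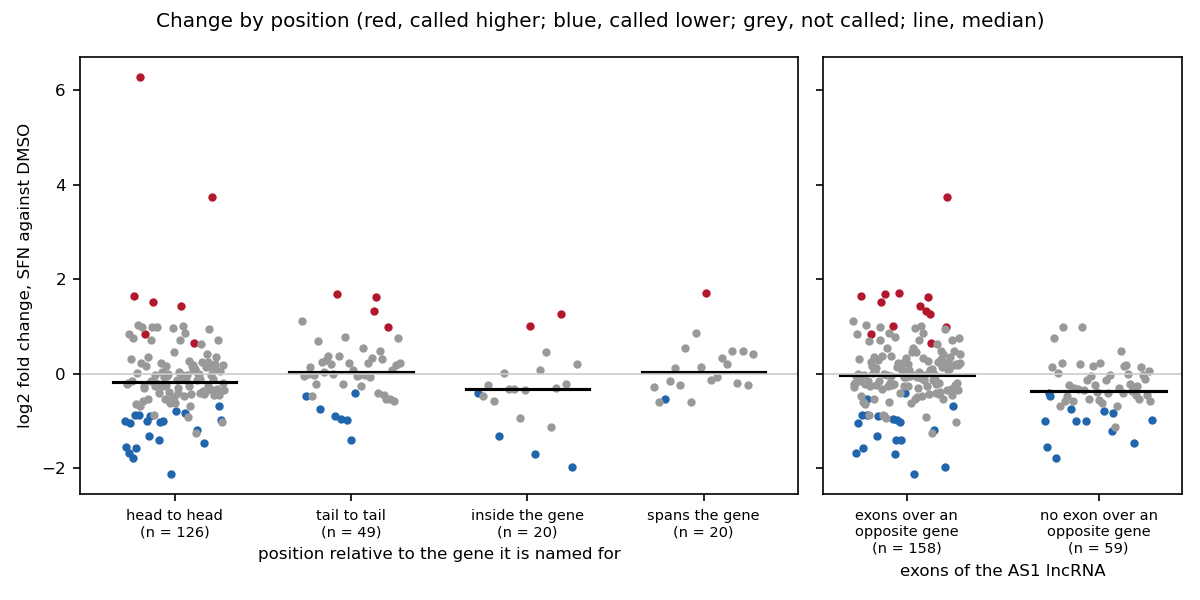
Log2 fold change (SFN against DMSO) on the vertical axis of AS1 lncRNAs by their position relative to the gene they are named for (left) and by whether their exons lie over a tested opposite-strand gene (right, 217 members with a GENCODE 44 position), with lines at the medians. On the right, 13 of 158 members with such exons are red (called higher) and 20 blue (called lower), and of the 59 without, 0 are red and 13 blue. DDIT4-AS1, which rose, and FRMD6-AS1, which fell, are not on the right. The difference between classes was not tested.

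Of the 5 members with the most counts, 1 was called. FGD5-AS1 was at 138 ± 28.9 CPM in DMSO and 164 ± 18.1 CPM in SFN (SD, n = 5 each), LRRC75A-AS1 between 115 and 180 and between 119 and 244, OTUD6B-AS1 at 75.4 ± 23.5 and 71.6 ± 3.75, and PAX8-AS1 at 63.9 ± 10.9 and 62.2 ± 2.81. None of these 4 was called by edgeR (adjusted p = 0.31, 0.19, 0.81 and 0.87). Without DMSO replicate 1, LRRC75A-AS1 was called higher (0.50, adjusted p = 0.016). OIP5-AS1 was at 97.3, 97.6, 96.9, 99.9 and 108 CPM in DMSO and 70.2, 67.1, 72.1, 89.3 and 79.9 CPM in SFN. Every SFN library was below every DMSO library, and the fall was small, -0.40 ± 0.10 on the log2 scale (SE, adjusted p = 0.015), with an adjusted p of 0.054 when no filter on low counts was used.

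Of the other members that are often studied, MCM3AP-AS1 fell by 0.96 ± 0.17 on the log2 scale (adjusted p = 0.00202, edgeR), from 4.65 ± 0.58 to 2.39 ± 0.40 CPM (SD), while MCM3AP, whose exons it overlaps by 1752 bp, differed by 0.03. PCBP1-AS1, SBF2-AS1, TMPO-AS1, LOXL1-AS1, MAPKAPK5-AS1, PSMA3-AS1 and SNAI3-AS1 were not called, with log2 differences between -0.23 and 0.48. PSMA3-AS1 was at 70.4 CPM in DMSO replicate 1, 43.1 to 50.3 CPM in the other DMSO libraries and 57.7 to 64.9 CPM in SFN, and was called higher (0.36, adjusted p = 0.00273) only without that library. SBF2-AS1 was called higher only without SFN replicate 3 (0.49, adjusted p = 0.0495).

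Of 43 other lncRNAs with names for an unnumbered or higher-numbered antisense, a divergent or an intronic transcript, 5 were higher and 4 lower (20.9% called, all genes 22.8%). With each library left out in turn, these counts ran from 2 to 7 and from 2 to 5. PSMD6-AS2 rose by 1.94 ± 0.42 and FAM111A-DT fell by 0.88 ± 0.20 on the log2 scale (SE, edgeR).

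The machinery that ends and clears such transcripts was examined with a list of 66 genes of the exosome and its adaptors, cytoplasmic decay, Integrator and 3′ end cleavage. All 66 were tested, 7 were higher and 5 lower (18.2% called, all genes 22.8%), with a median log2 fold change of -0.025. The largest rises were of PCF11, a termination factor that releases RNA polymerase II, by 1.76 ± 0.13 (75.6 ± 9.43 to 256 ± 38.3 CPM), PPP1R10, which encodes PNUTS, a phosphatase scaffold that acts on polymerase at termination sites, by 1.41 ± 0.17 (45.2 ± 10.9 to 121 ± 10.7 CPM), and INTS2 of Integrator by 0.84 ± 0.19. The largest falls were of INTS5 of Integrator by 1.06 ± 0.14, ZC3H3, a zinc finger gene of nuclear polyadenylated RNA export and decay, by 1.03 ± 0.32 and the exosome core subunit EXOSC2 by 0.59 ± 0.10 on the log2 scale. Subunits of Integrator thus moved in both directions. Without DMSO replicate 1, 14 of the 66 were higher and 11 lower (22.5% and 23.5% of all genes), and with each other library left out 3 or 4 were lower.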

How the data were processed

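Cultures of RPE-1 cells given SFN or the vehicle for 4 h (n = 5 each) were profiled with Lexogen QuantSeq 3′ libraries. The authors deposited raw counts per Ensembl gene, unnormalized and with replicates kept apart. The submitters' processing notes name FastQC, STAR, featureCounts, edgeR and GRCh38 without versions; strand use and molecular identifiers are not given in the sources used here. Samples were grouped by the treatment label.

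Genes with a total of 100 or more over the 10 columns were tested with edgeR 4.0.16 (TMM, quasi-likelihood F test, Benjamini-Hochberg) in R 4.3.3, and a call is an adjusted p under 0.05. The study's own comparison used edgeR normalization and limma on values quantile-normalized with voomWithDreamWeights, allowing for repeated measures. Ratios of lncRNA to gene were tested with limma 3.58.1 on differences of log2 CPM (prior count 2). Alternatives used DESeq2 1.42.0, limma-voom, other scalings and filters, a replicate block and each library left out. Tables were made with Python 3.11.15 and pandas 2.3.3. The fits were tested on simulated data. No pair of replicates agreed within sampling noise.

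Library totals of 12375860 to 20666692 counts set the precision. Most members had under 1000 counts, and intervals cover counting error only. Marker genes were checked against the labelled cell line. Positions came from GENCODE 44, and promoters and 2 positions from RefSeq GRCh38.p14.

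The members and gene lists were chosen with earlier results of these data known, and the promoter motifs after the values were seen. Genes named are the 12 largest called changes per direction, the 5 highest totals, the 3 totals on either side of 100, often-studied members, the 5 largest called ratio changes per direction and the 3 largest called changes per direction in the decay list.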

Additional observations from a re-analysis of the deposited data

Results flagged for a closer look

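In 14 of 96 groups of 5 values for the 45 named members and the library measures, 1 library lay far from the other 4. The measure was its gap to the nearest of them divided by the group's whole range. For independent normal values the nominal rate of this rule gives about 5 such groups. These groups share the same libraries and many hold few counts, so that number is not the rate expected here. DMSO replicate 1 was the library in 10 of the 14. In its group it had the lowest TMM scaling factor (gap 0.90 of the range) and the lowest mean correlation with the other libraries (gap 0.93 of the range). It was the highest DMSO library for FOXC2-AS1 (gap 0.80), FRMD6-AS1 (0.86), H1FX-AS1 (0.77), LRRC75A-AS1 (0.74), MAPKAPK5-AS1 (0.83), NIFK-AS1 (0.87), OTUD6B-AS1 (0.79) and PSMA3-AS1 (0.74). DMSO replicate 5 was the highest DMSO library for OIP5-AS1 (0.74) and, with its 1 count, for DDIT4-AS1 (1.0). SFN replicate 2 was the highest SFN library for MELTF-AS1 (0.76) and SFN replicate 3 the lowest for SBF2-AS1 (0.77). What set DMSO replicate 1 apart was not tested.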

How the results depend on the processing

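Of the 45 named members, 28 were called. This count follows largely from the naming, since the 12 largest called changes per direction were named because they were called. Of the 28, 21 kept the call under every alternative that could be fitted. The other 7 (SNRK-AS1, ASH1L-AS1, ZEB1-AS1, MELTF-AS1, INTS6-AS1, ATP2A1-AS1 and OIP5-AS1) lost it under 1 or more, and no called member changed direction. Among the 21, DDIT4-AS1, UCKL1-AS1, KIF9-AS1, BTG3-AS1, PRR7-AS1 and MMP25-AS1 reached the limit on total counts only through their higher group. So did ASH1L-AS1 and MELTF-AS1 among the 7. For these members a kept or lost call is a description. DDIT4-AS1 and DEPDC1-AS1 did not pass filterByExpr and had no value there. The sign turned for members that were not called. With each library left out, FOXC2-AS1 ran from -0.075 (without DMSO replicate 3; -0.034 without SFN replicate 2) to 0.98, GDNF-AS1 from -0.35 to 0.37 (-0.14 without DMSO replicate 1, and -0.082 with limma-voom), MAPKAPK5-AS1 from -0.33 to 0.040, OTUD6B-AS1 from -0.16 to 0.13, TDRKH-AS1 from -0.24 to 0.11 (0.027 without DMSO replicate 1) and PAX8-AS1 from -0.14 to 0.014.

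Leaving out each library in turn gave 11 to 25 members higher and 20 to 41 lower, 14 to 47 and 26 to 56 named genes, 2 to 7 and 2 to 5 other lncRNAs, 6 to 14 and 3 to 11 decay and termination genes, and 15 to 38 and 16 to 32 ratios. The high ends came without DMSO replicate 1. Other lncRNAs lower (4) came to 1 with limma-voom and 1 with no filter on low counts, and decay and termination genes higher (7) to 11 with DESeq2. The cause was not tested.

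Deviations of same-numbered samples from their group means correlated between -0.26 and 0.48, and only number 5 correlated best with itself. DMSO replicates 2 to 5 all correlated best with SFN replicate 5, and the DMSO means include the outlying DMSO replicate 1. This check therefore cannot tell whether the replicate numbers pair the samples. With the replicate number as a block, 13 members were higher and 23 lower (35 of these 36 among the 48), 18 and 30 named genes, 4 and 2 other lncRNAs, 6 and 4 decay and termination genes, and 19 and 20 ratios. The share called was 16.5% of the 103 members with under 300 counts (all such genes 18.9%). It was 32.9% of the 73 members with 300 or more but under 1000 counts (all such genes 28.1%). Of the 43 with 1000 or more, 16.3% were called (all such genes 22.5%). Depth limits the size of the largest changes, since DDIT4-AS1 had 1 DMSO count and UCKL1-AS1 had 9.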
